A study of Arabidopsis thaliana with 6 samples.

Results

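The genes described here are the nuclear genes for the photosynthetic apparatus of the chloroplast. They were listed by locus: subunits of photosystem I and photosystem II, light-harvesting proteins of photosystem I (LHCA) and photosystem II (LHCB), Rubisco small subunits with Rubisco activase (RCA), plastocyanin and the Rieske protein (PETC) as electron carriers, and the ATP synthase subunits ATPC1 and ATPD. All 52 listed loci were among the 33602 genes of the deposited table. Poly(A) RNA was sequenced from germinating Arabidopsis thaliana seeds of the wild type (Col-0) and of scl30a-1, a line in the Columbia background mutated in SCL30a, which encodes a serine/arginine-rich splicing factor. For both genotypes, portions of 50 mg of seeds were kept cold for 3 days and then held at 21 degrees Celsius in continuous white light for 18 h. Each genotype had 3 biological samples, and 1 mutant line was studied.

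Photosystem II splits water, photosystem I reduces ferredoxin, and the LHC proteins bind chlorophyll and pass light energy to both. Plastocyanin and the Rieske protein carry electrons between the photosystems, ATP synthase uses the resulting proton gradient, and Rubisco fixes carbon dioxide. A dry Arabidopsis seed lives on stored oil and protein, and the nuclear genes of this apparatus are switched on by light as the seedling becomes green.

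Of the genes for this apparatus that could be tested, most were lower in scl30a-1 than in wild-type seeds, and each complex held at least 1 gene called lower. The share called lower ran from 50% for ATP synthase to 100% for the electron carriers, but these complexes had only 2 tested genes each. Of the 52 genes, 43 reached a mean of 10 counts, and these 43 were also the ones that passed the filter of the fit across all genes. With edgeR's quasi-likelihood test and an adjusted p under 0.05, 29 of the 43 were lower in scl30a-1, 0 were higher and 14 were not called. Over all 18736 genes tested, 19.7% were called lower, 21.9% higher and 41.7% in either direction, against 67.4% called lower here. The median log2 fold change of the 43 was -0.52, and that over all genes tested was 0.0027. Falls of at least 1.5-fold were called for 19 of the 43 and for 6.11% of all genes tested. The log2 fold changes ran from -1.86 for RBCS2B to 0.02 for PSAH1, the 1 gene of the 43 above 0. PSAH1 too was below 0 when libraries were scaled by their totals alone or by upper quartiles, and 32 genes were called lower under each of these scalings. Both scalings also shifted the whole table, with medians over all genes tested of -0.0449 and -0.065. The number called lower over all genes rose from 3700 to 4589 and 5258. When single libraries were left out, 5 of the 43 were above 0 without wild-type library b and 5 without mutant library a. The number was 3 without mutant library c, 2 without wild-type library a, and 0 without wild-type library c or mutant library b.

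**Figure D1:**
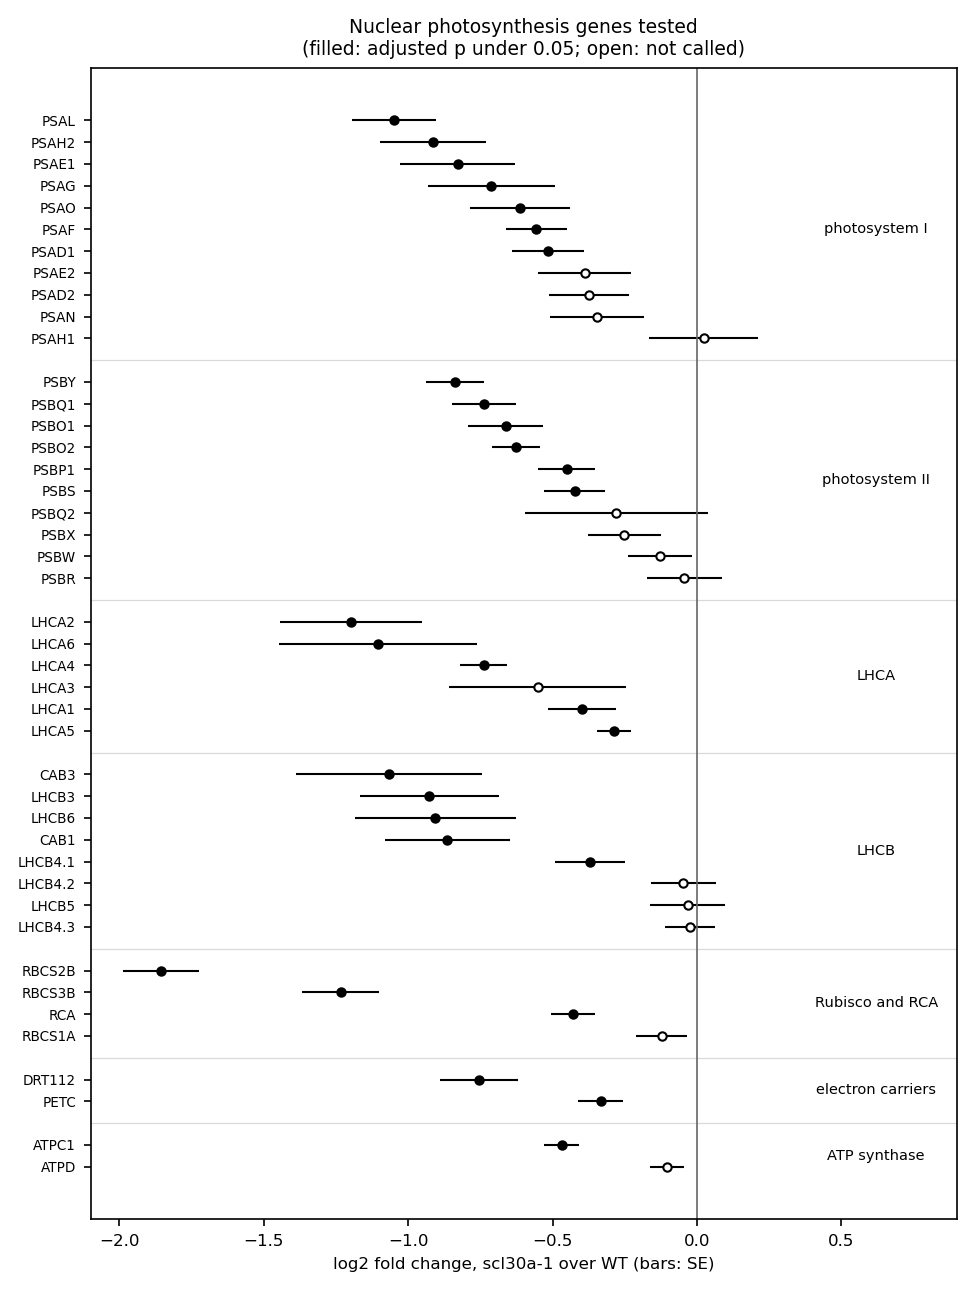
Log2 fold change of scl30a-1 over wild type (x axis) for the 43 photosynthesis genes tested (y axis, by complex), with standard errors as bars. Filled points had an edgeR adjusted p under 0.05: 29 lie below 0 and 0 above, and RBCS2B lies farthest to the left at -1.86.

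All scl30a-1 libraries lay below all wild-type libraries for 29 of the 43 genes, against 25.2% of all genes tested, and for the other 14 the genotypes overlapped. These 29 differ in part from the 29 called lower. PSAD2 and PSAE2 were separated but not called, and LHCA6 and LHCB4.1 were called although their genotypes overlapped. Libraries of 1 genotype also differed from each other along the whole group. Wild-type library c was the lowest of its genotype for 39 of the 43 genes, with a median log2 deviation of -0.18 from the genotype mean. Mutant library b was the highest of its genotype for 40 of the 43, with a median deviation of 0.20. Leaving out mutant library b raised the number called lower from 29 to 36, and leaving out wild-type library c left it at 29. It was 23 without wild-type library b, 23 without mutant library a, and 25 without either wild-type library a or mutant library c. The number called lower over all genes moved the same way in these fits: it was 3700 with all libraries, 3895 without mutant library b, and 2714 to 3191 in the fits without wild-type library a or b or mutant library a or c.

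A few measurements on the whole libraries bear on these values. Totals were 70687361 to 84356746 counts per wild-type library and 77817191 to 85605647 per mutant library, of which the 52 genes took 0.114% to 0.131% and 0.0895% to 0.106%. SCL30a itself stood at 96.1 ± 0.92 CPM in wild-type libraries and 5.74 ± 0.156 CPM in the mutant (SD, n = 3), where CPM are counts scaled to 1000000 per library with TMM factors. As a check of the labelled tissue, 8 of 8 listed seed storage and oil body genes were detected, and all 8 were called higher in scl30a-1. Their summed level was 1171 to 1472 CPM in wild-type libraries and 9051 to 10580 CPM in mutant libraries, highest in mutant library b. Of 4 genes of the germinating endosperm, 2 were called higher in scl30a-1, EPR1 and MAN7. Over all genes tested, 21.9% were called higher and 41.7% in either direction, so 2 of 4 is near the latter share. The sums over the 4 were 1606 to 1702 CPM in wild-type libraries and 2281 to 2359 CPM in mutant libraries. EPR1 went from a mean of 228 to 724 CPM, while MAN6 (log2 fold change -0.52, edgeR adjusted p = 0.0553) and EXPA2 (0.12, edgeR adjusted p = 0.212) were not called. The part of these seed genes in the lower photosynthesis transcripts was not tested. In whole seeds, fewer cells that express a gene and less RNA per cell cannot be told apart. The labels gave no harvest or sequencing batch, so genotype and batch cannot be told apart either.

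Summed over the genes of a complex, transcript levels in scl30a-1 were between 66.4% and 86.7% of the wild type. For these sums CPM were divided by the length of the longest annotated transcript in kilobases (CPM per kb), which allows levels of different genes to be added. Photosystem I was at 66.4% ± 9.34 of the wild-type mean (SD of the 3 mutant libraries), the electron carriers were at 72.9% ± 8.81, LHCA at 73.2% ± 4.21 and photosystem II at 75.4% ± 12.1. ATP synthase was at 79.8% ± 4.33, LHCB at 82.5% ± 12.5, and Rubisco with RCA at 86.7% ± 11.2. The last sum is mostly RBCS1A, at 363 of 431.6 CPM per kb in the wild type, and the median log2 fold change of the 4 genes tested there was -0.83, the lowest of the 7 complexes. Single genes also weigh most in the LHCB sum (LHCB4.1, 31.5 of 49.26 CPM per kb in the wild type) and the LHCA sum (LHCA5, 32.8 of 55.23). These 2 sums therefore say little about the other antenna genes. The median log2 fold changes of the genes tested were -0.62 for LHCB and -0.64 for LHCA. Differences between neighbours in the order of the sums were smaller than the larger of their SDs. Mutant library b was the nearest to the wild type in every complex. It lay above wild-type library c in the sums of photosystem II, LHCB, and Rubisco with RCA, so that the genotypes overlapped there. In photosystem I, LHCA, the electron carriers and ATP synthase all mutant libraries lay below all wild-type libraries.

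**Figure D2:**
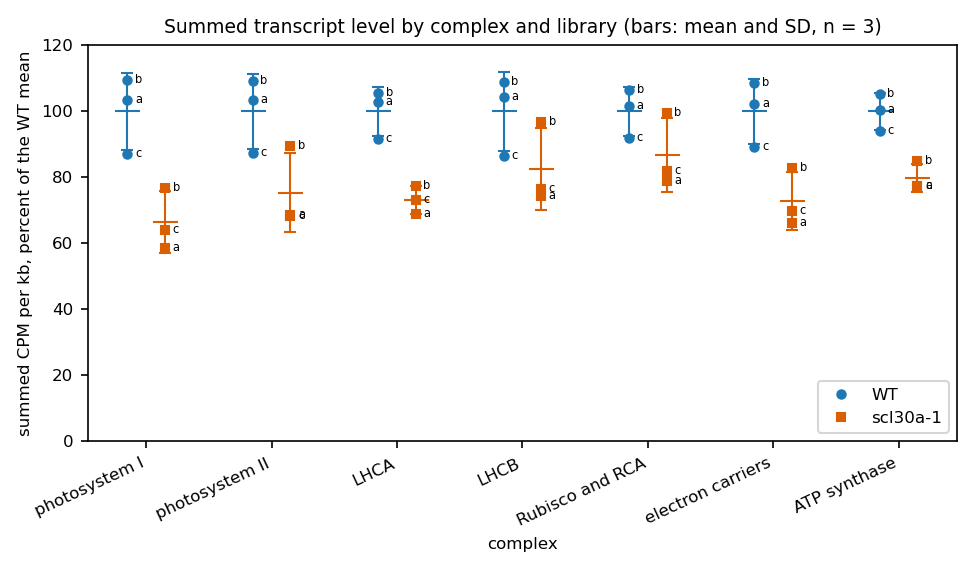
Summed CPM per kb of each complex in each library as a percentage of the wild-type mean (y axis), with letters naming libraries and bars giving mean and SD (n = 3). The scl30a-1 means lie between 66.4% for photosystem I and 86.7% for Rubisco and RCA, and library b is the highest mutant library in every complex.

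Per length, the Rubisco small subunit gene RBCS1A was by far the most abundant of the group in the wild type at 363 CPM per kb, followed by ATPC1 at 75.7 and PSBX at 61.3 CPM per kb. Genes of the major antenna, which are abundant in green leaves, were scarce: CAB1 stood at 0.812 and LHCB3 at 0.549 CPM per kb in the wild type. Of the LHCB1 and LHCB2 genes, between 20.4% (LHB1B1) and 100% (LHB1B2) of the 36-base words of the transcript also occur in other genes, and how reads that match several genes were counted is not given in the sources used here, so these levels may be too low. The 9 genes not tested were LHB1B1, LHB1B2, LHCB2.1, LHCB2.2, LHCB2.3, CAB2, RBCS1B, PSAK and PETE1, with 0 to 13 counts in any library and 78 counts together in the wild type and 42 in scl30a-1. PSAK, at a mean of 7.83 counts, was just outside the limit of 10 and CAB3, at 15.3, just inside. CAB3 was also the only gene tested that had fewer than 10 counts in a library, with 6 in mutant library c.

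**Figure D3:**
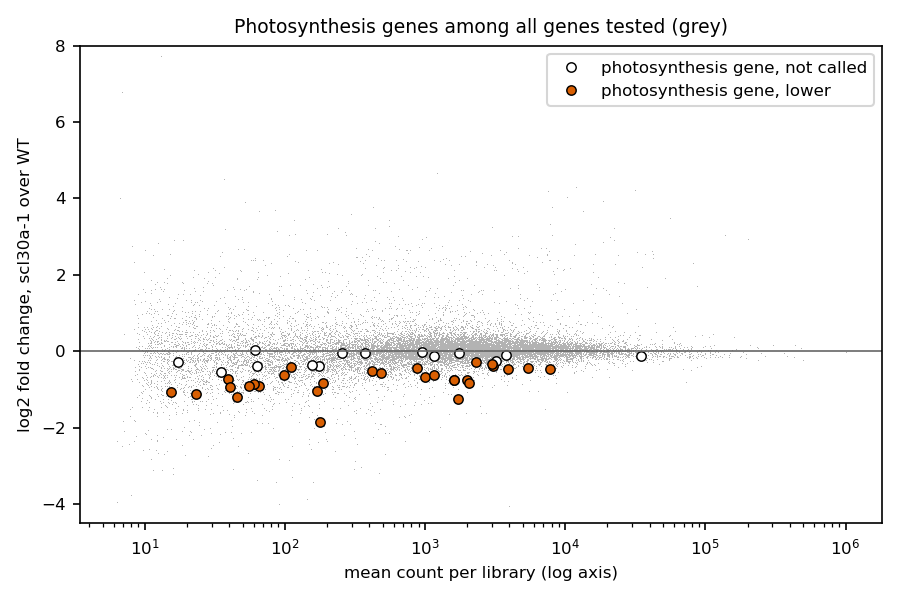
Log2 fold change of scl30a-1 over wild type (y axis) against the mean count per library (x axis, log scale) for all 18736 genes tested (grey) and the 43 photosynthesis genes (circles, filled where called lower). The called genes spread from CAB3 at a mean of 15.3 counts to ATPC1 at 7823.

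Calls were made at all levels of abundance. Of the 20 genes with a wild-type mean of at least 10 CPM, 14 were called lower (median log2 fold change -0.43). At 1 to 10 CPM 8 of 12 were called lower (median -0.54), and below 1 CPM 7 of 11 (median -0.86). Reads of some genes can be assigned to near-identical or overlapping genes. For 11 of the genes tested more than 10% of the 36-base words of the transcript also occur in transcripts of other genes, and 10 of these were called lower, with a median log2 fold change of -0.91. Among the 32 genes with at most 10% shared words, 19 were called lower and the median was -0.41, so the genes open to misassigned reads had the larger median fall. The splits by abundance and by shared words overlap. PSAG, PSAH1, LHCA2, CAB1, CAB3, LHCB3 and LHCB6 had more than 10% shared words and also lay below 1 CPM. The part of shared words in the larger fall was not tested.

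Photosystem I had 7 of 11 tested subunit genes called lower and 0 higher, with a median log2 fold change of -0.56. PSAL (AT4G12800) encodes a subunit on the side where light-harvesting complexes dock during state transitions, and it fell most. Its values were 2.73, 3.41 and 2.61 CPM in the wild type against 1.39, 1.63 and 1.2 CPM in the mutant, in the order of libraries a, b and c used throughout. Every mutant library thus lay well below every wild-type library (log2 fold change -1.05 with a standard error of 0.145, edgeR adjusted p = 0.00031). PSAF (AT1G31330), the subunit that docks plastocyanin, had 6.98, 8.36 and 6.49 CPM in the wild type against 4.52, 5.33 and 5 CPM in the mutant (log2 fold change -0.56 with a standard error of 0.106, edgeR adjusted p = 0.00225). It was the most abundant of the complex per length, and its genotypes did not overlap. PSAE1 (AT4G28750), which takes part in ferredoxin docking, had 3.48, 3.29 and 2.42 CPM in the wild type against 1.4, 2.3 and 1.46 CPM in the mutant (log2 fold change -0.83 with a standard error of 0.199, edgeR adjusted p = 0.00791). The mutant library b came close to wild-type library c, and 30.4% of PSAE1 words also occur in AT4G28755, which overlaps it on the opposite strand.

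PSAD1, the other subunit at the ferredoxin site (log2 fold change -0.52, edgeR adjusted p = 0.00794), PSAG (-0.71, edgeR adjusted p = 0.026) and PSAO (-0.61, edgeR adjusted p = 0.017) were also called lower. The call for PSAG was lost without wild-type library a (edgeR adjusted p = 0.0975), wild-type library b (0.0571) or mutant library a (0.103), and 59.6% of its words are shared. That for PSAO was lost without wild-type library b (0.0722) or mutant library a (0.0734). PSAD2 (log2 fold change -0.37, edgeR adjusted p = 0.0545), PSAE2 (-0.39, edgeR adjusted p = 0.0767) and PSAN (-0.35, edgeR adjusted p = 0.113) were not called. PSAD2 was called lower by DESeq2 (adjusted p = 0.0492), when scaled by library totals alone (edgeR adjusted p = 0.0288) or by upper quartiles (0.0263), and without wild-type library c (0.0302) or mutant library b (0.0301). Without mutant library b, PSAE2 (0.0327) and PSAN (0.0143) were called lower as well, and PSAE2 also with either of these scalings.

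PSAH, another subunit of the docking side, is encoded by a pair of genes with different values. PSAH2 (AT1G52230) had 1.3, 1.06 and 0.943 CPM in the wild type against 0.515, 0.689 and 0.541 CPM in the mutant, with no overlap (log2 fold change -0.91 with a standard error of 0.183, edgeR adjusted p = 0.0029). PSAH1 (AT3G16140) had 0.896, 0.783 and 0.644 CPM in the wild type against 0.632, 0.884 and 0.838 CPM in the mutant, so that its genotypes overlapped (log2 fold change 0.02 with a standard error of 0.188, edgeR adjusted p = 0.932). The share of PSAH1 in the summed PSAH level, as CPM per kb, was 27.5% ± 0.9 in the wild type and 42.1% ± 3.01 in the mutant (SD, n = 3). In CPM, without division by length, it was 41.3% ± 1.09 in the wild type and 57.3% ± 2.99 in the mutant. The longest annotated transcripts had 1300 bases for PSAH1 and 702 for PSAH2, so which gene is the larger in the mutant depends on the scale. The shares did not overlap, which for 3 libraries against 3 gives an exact two-sided permutation p of 0.1, the smallest possible. Both genes overlap a gene on the opposite strand, AT3G16130 for PSAH1 (49.7% of words shared) and AT1G52240 for PSAH2 (20.8%), and the use of strand in counting was not given in the sources used here.

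The 250 bases upstream of the annotated starts of this pair are shown because the genes differed in their fold changes. They are from RefSeq's annotation of the TAIR10.1 assembly, 5′ to 3′ on the strand of the gene, and capitals mark 4 short motifs known from light- and clock-regulated plant promoters. These are the G-box CACGTG, the I-box GATAAG, the evening element AAAATATCT and the CCA1 site AAAAATCT, searched on both strands, and none of them contains another.
PSAH1, chr3:5469595-5469844, minus strand: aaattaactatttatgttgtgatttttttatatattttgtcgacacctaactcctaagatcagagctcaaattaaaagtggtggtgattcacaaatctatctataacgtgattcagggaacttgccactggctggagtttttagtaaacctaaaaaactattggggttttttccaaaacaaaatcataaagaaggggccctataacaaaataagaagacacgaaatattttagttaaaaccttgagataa
PSAH2, chr1:19454548-19454797, plus strand: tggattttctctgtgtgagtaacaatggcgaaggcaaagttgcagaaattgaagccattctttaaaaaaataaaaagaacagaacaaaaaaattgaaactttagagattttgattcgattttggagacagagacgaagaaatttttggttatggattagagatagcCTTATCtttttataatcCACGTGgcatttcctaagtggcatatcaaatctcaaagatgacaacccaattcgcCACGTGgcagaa
The PSAH2 window held 2 G-boxes and 1 I-box, and the PSAH1 window held none of the 4 motifs. A match of letters is a description and not a binding site. Annotated starts can lie upstream of the main start, and a window can reach into a neighbouring gene.

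Photosystem II had 6 of 10 tested genes called lower and 0 higher (median log2 fold change -0.44). The extrinsic proteins PSBO, PSBP and PSBQ shield the manganese cluster that oxidises water. PSBO2 (AT3G50820) had 18.2, 18.2 and 16.8 CPM in the wild type against 10.8, 13.1 and 10.5 CPM in the mutant (log2 fold change -0.63 with a standard error of 0.0832, edgeR adjusted p = 0.000236). PSBO1 (AT5G66570) had 15.6, 17.8 and 13.1 CPM in the wild type against 8.36, 11.6 and 9.46 CPM in the mutant (log2 fold change -0.66 with a standard error of 0.13, edgeR adjusted p = 0.00265). Both PSBO genes were separated by genotype, and the share of PSBO1 in the pair was 43.3% ± 2.86 in the wild type and 42.8% ± 2.03 in the mutant, with overlapping libraries. PSBQ1 (AT4G21280) had 32.4, 34.2 and 27.8 CPM in the wild type against 17.5, 22.4 and 16.6 CPM in the mutant, with no overlap (log2 fold change -0.74 with a standard error of 0.111, edgeR adjusted p = 0.000546). PSBP1 fell as well (log2 fold change -0.45, edgeR adjusted p = 0.00447), and PSBQ2, with 12 to 23 counts per library, was not called.

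PSBY (AT1G67740), a small membrane protein of photosystem II, fell most in this complex. Its values were 34.4, 36.2 and 29.8 CPM in the wild type against 17.9, 21.7 and 16.7 CPM in the mutant (log2 fold change -0.84 with a standard error of 0.0997, edgeR adjusted p = 0.000115). PSBS, which is needed for the dissipation of excess light energy, was lower too (log2 fold change -0.42, edgeR adjusted p = 0.00913). The small subunits PSBX, PSBW and PSBR were not called. PSBX (AT2G06520), the most abundant gene of the complex per length, had 45.4, 49.2 and 37.7 CPM in the wild type against 32.5, 45.1 and 33.5 CPM in the mutant. Mutant library b lay inside the wild-type range (log2 fold change -0.25 with a standard error of 0.127, edgeR adjusted p = 0.14), and without that library PSBX was called lower (log2 fold change -0.42, edgeR adjusted p = 0.00285). It was also called without wild-type library c (0.0335). PSBW (log2 fold change -0.13, edgeR adjusted p = 0.384) was called lower without mutant library b (edgeR adjusted p = 0.0229). PSBR stood at 18.7 to 26.3 CPM over both genotypes (log2 fold change -0.04 with a standard error of 0.13, edgeR adjusted p = 0.804).

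All 6 LHCA genes were tested and 5 were called lower (median log2 fold change -0.64). LHCA1 to LHCA4 form the antenna belt of photosystem I, and LHCA5 and LHCA6 link photosystem I to the chloroplast NADH dehydrogenase-like complex. LHCA5 (AT1G45474), the most abundant, had 33, 33.5 and 30 CPM in the wild type against 25.1, 27.9 and 26.1 CPM in the mutant, a small but separated difference (log2 fold change -0.29 with a standard error of 0.0596, edgeR adjusted p = 0.00361). LHCA4 (AT3G47470) had 26.7, 27.5 and 22.6 CPM in the wild type against 14.1, 16.1 and 15.8 CPM in the mutant, a wider gap (log2 fold change -0.74 with a standard error of 0.082, edgeR adjusted p = 7.22e-05). LHCA2 (AT3G61470), at far lower counts, had 0.868, 0.979 and 0.587 CPM in the wild type against 0.409, 0.364 and 0.271 CPM in the mutant (log2 fold change -1.20 with a standard error of 0.245, edgeR adjusted p = 0.00327). The genotypes were separated in each of these genes. LHCA1 (AT3G54890) had 1.5, 1.54 and 1.7 CPM in the wild type against 1.15, 1.21 and 1.25 CPM in the mutant, again separated (log2 fold change -0.40 with a standard error of 0.117, edgeR adjusted p = 0.0202). Its call was lost without wild-type library c (edgeR adjusted p = 0.066) or mutant library a (0.073). LHCA6, with 10 to 38 counts per library, was called lower (log2 fold change -1.10, edgeR adjusted p = 0.0256) although its genotypes overlapped. The LHCA6 call was lost without wild-type library a (0.0665) or b (0.0959) and without mutant library a (0.101) or c (0.0872). LHCA3, at 18 to 52 counts per library, was not called (log2 fold change -0.55, edgeR adjusted p = 0.176), but was called lower without mutant library b (0.0482).

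**Figure D4:**
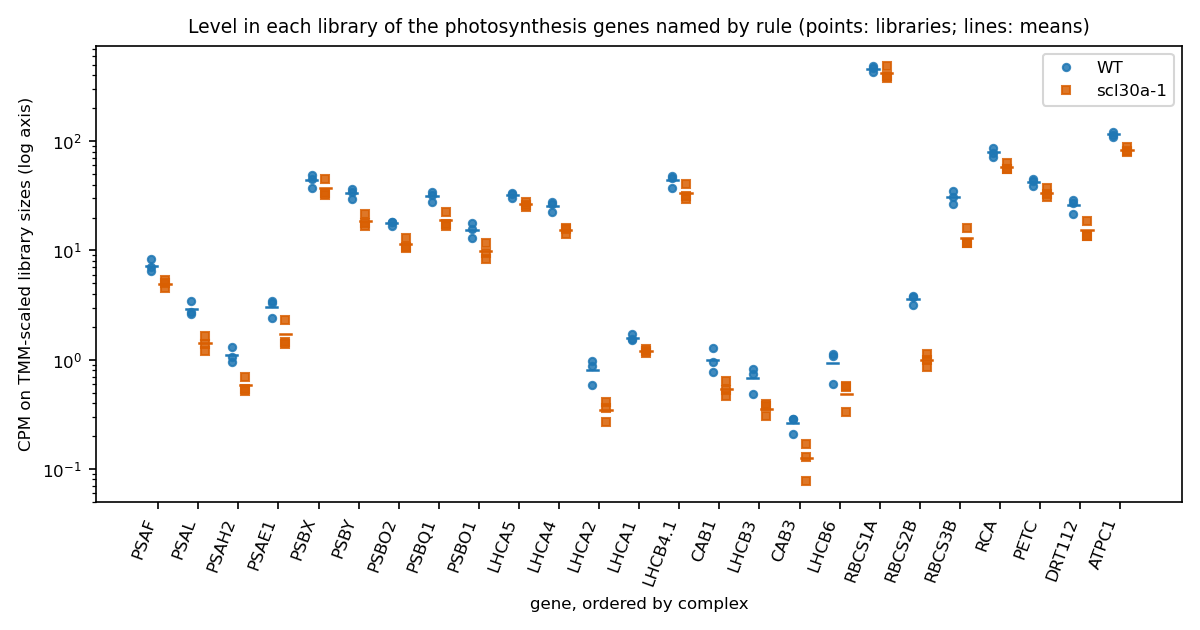
Level of 25 photosynthesis genes (x axis, ordered by complex) in each library, in CPM on a log axis, with lines at the genotype means. RBCS1A stands highest with overlapping genotypes, and RBCS2B shows the widest gap, at 3.81, 3.78 and 3.19 CPM in wild-type libraries against 0.983, 1.13 and 0.851 CPM in mutant libraries.

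Of the 14 LHCB genes 8 were tested, and 5 were called lower (median log2 fold change -0.62). LHCB1, LHCB2 and LHCB3 form the trimers of the major antenna, and LHCB4, LHCB5 and LHCB6 are the single minor antenna proteins between trimers and core. CAB1 (AT1G29930), an LHCB1 gene, had 1.27, 0.952 and 0.771 CPM in the wild type against 0.468, 0.637 and 0.528 CPM in the mutant (log2 fold change -0.86 with a standard error of 0.217, edgeR adjusted p = 0.00972). Its neighbour CAB3 (AT1G29910) had 0.21, 0.287 and 0.288 CPM in the wild type against 0.129, 0.169 and 0.0773 CPM in the mutant (log2 fold change -1.06 with a standard error of 0.322, edgeR adjusted p = 0.0226). LHCB3 (AT5G54270) had 0.742, 0.822 and 0.483 CPM in the wild type against 0.304, 0.39 and 0.374 CPM in the mutant (log2 fold change -0.93 with a standard error of 0.24, edgeR adjusted p = 0.0113). The genotypes did not overlap in these 3 genes, but 33% of CAB1, 20.5% of CAB3 and 12.2% of LHCB3 words occur in other genes. The CAB3 call was lost with DESeq2 (adjusted p = 0.059) and, in edgeR, without wild-type library b (0.0708) or c (0.0636) and without mutant library a (0.0616) or c (0.0757). That of LHCB3 was lost without mutant library a (0.0507).

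The minor antenna genes differed among themselves. LHCB4.1 (AT5G01530) was the most abundant LHCB gene per length, with 46.3, 47.9 and 37.5 CPM in the wild type against 29.6, 40.7 and 31.4 CPM in the mutant. Mutant library b lay above wild-type library c, so that the genotypes overlapped (log2 fold change -0.37 with a standard error of 0.121, edgeR adjusted p = 0.0322). This call was lost without wild-type library a (0.0913) or b (0.122) and without mutant library a (0.128) or c (0.1). LHCB6 (AT1G15820) had 1.08, 1.12 and 0.598 CPM in the wild type against 0.562, 0.572 and 0.335 CPM in the mutant, with a narrow separation (log2 fold change -0.91 with a standard error of 0.279, edgeR adjusted p = 0.0251). Its call was lost without wild-type library a (0.0794) or b (0.0994) and without mutant library c (0.0843). LHCB4.2, LHCB4.3 and LHCB5 were not called, with log2 fold changes of -0.05, -0.02 and -0.03. LHCB4.3 had 12.4, 13 and 11.3 CPM in the wild type against 11.4, 13.6 and 11.1 CPM in the mutant, nearly the same range. Within the LHCB4 group, as CPM per kb, the share of LHCB4.1 was 70.6% ± 1.27 in the wild type and 65.4% ± 1.47 in the mutant (SD, n = 3). The share of LHCB4.3 was 20.9% ± 0.962 in the wild type and 24.7% ± 1.27 in the mutant. Neither share overlapped between genotypes (exact permutation p = 0.1, the smallest possible), but shares of a group add up to the whole and are not independent.

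**Figure D5:**
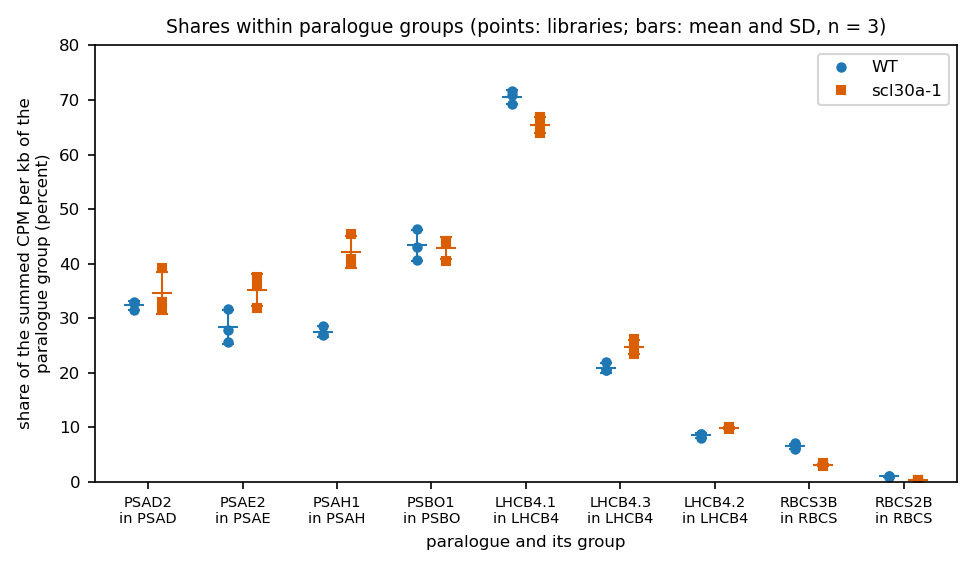
Share of single paralogues in the summed CPM per kb of their group (y axis, percent) in each library, with mean and SD (n = 3). The genotypes are separated for PSAE2, PSAH1, LHCB4.1, LHCB4.2, LHCB4.3, RBCS2B and RBCS3B, and overlap for PSBO1 and PSAD2.

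Rubisco small subunit genes showed a wide contrast among paralogues. RBCS2B (AT5G38420) had the largest fall of the 43 genes, with 3.81, 3.78 and 3.19 CPM in the wild type against 0.983, 1.13 and 0.851 CPM in the mutant. It was 3.62-fold lower in scl30a-1 (log2 fold change -1.86 with a standard error of 0.131, edgeR adjusted p = 2.73e-06), a gap far wider than the spread between libraries. RBCS3B (AT5G38410) had 30.9, 35.2 and 26.4 CPM in the wild type against 11.6, 16.1 and 11.6 CPM in the mutant, also widely separated (log2 fold change -1.23 with a standard error of 0.134, edgeR adjusted p = 6.39e-05). RBCS1A (AT1G67090) had 469, 485 and 426 CPM in the wild type against 383, 486 and 398 CPM in the mutant. Its genotypes overlapped and it was not called (log2 fold change -0.12 with a standard error of 0.0892, edgeR adjusted p = 0.3), although it was called lower without mutant library b (edgeR adjusted p = 0.00974). As a share of the summed RBCS level in CPM per kb, RBCS3B made up 6.48% ± 0.491 in the wild type and 3.13% ± 0.197 in the mutant. The share of RBCS2B was 0.979% ± 0.0386 in the wild type and 0.307% ± 0.0283 in the mutant. RBCS1A made up nearly all the rest, 92.5% ± 0.505 in the wild type and 96.6% ± 0.205 in the mutant, and none of these shares overlapped between genotypes (exact permutation p = 0.1, the smallest possible). Shares add up to the whole, so the rise of RBCS1A is not a separate result from the falls of RBCS2B and RBCS3B. RBCS1B was in the sum although not tested, and shares had been planned only for groups whose genes all passed the filter.

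RBCS2B and RBCS3B are neighbours on the minus strand of chromosome 5, at 15380907 to 15382071 and 15376988 to 15378642 (TAIR10.1), with RBCS1B beside them at 15383167 to 15385320. RBCS1A lies on chromosome 1 at 25048158 to 25049667, and each of the 4 has 3 exons. For RBCS2B 33.2% and for RBCS3B 23.1% of the words occur elsewhere in the family, so reads of one may have been counted for the other, against 3.33% for RBCS1A. The upstream windows of these 3 genes are shown because their fold changes differ widely within 1 family, with capitals as above.
RBCS1A, chr1:25049668-25049917, minus strand: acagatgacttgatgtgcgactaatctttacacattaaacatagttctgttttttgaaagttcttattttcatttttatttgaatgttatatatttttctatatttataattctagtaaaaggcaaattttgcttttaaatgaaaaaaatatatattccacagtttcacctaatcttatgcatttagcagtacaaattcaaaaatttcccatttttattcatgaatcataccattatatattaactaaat
RBCS2B, chr5:15382072-15382321, minus strand: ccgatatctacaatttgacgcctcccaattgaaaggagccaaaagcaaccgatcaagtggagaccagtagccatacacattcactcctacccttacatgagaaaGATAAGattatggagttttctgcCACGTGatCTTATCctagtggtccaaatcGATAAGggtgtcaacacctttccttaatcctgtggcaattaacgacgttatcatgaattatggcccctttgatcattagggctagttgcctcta
RBCS3B, chr5:15378643-15378892, minus strand: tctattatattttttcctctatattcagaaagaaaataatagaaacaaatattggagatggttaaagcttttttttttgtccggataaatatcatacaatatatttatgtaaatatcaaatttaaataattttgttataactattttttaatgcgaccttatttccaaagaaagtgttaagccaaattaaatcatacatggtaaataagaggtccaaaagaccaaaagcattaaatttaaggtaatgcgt
The RBCS2B window held 1 G-box and 3 I-boxes, and the windows of RBCS1A and RBCS3B held none of the 4 motifs. The longest annotated transcripts had 1268 bases for RBCS1A and 1210 for RBCS3B, against 935 for RBCS2B. An annotated start can lie upstream of the main start, and motifs between such starts would fall outside the window. The absence of a motif here therefore does not show that a promoter lacks it, and its relation to the fold changes was not tested. Over the 52 genes, 19.2% of the windows held a G-box and 25% an I-box, against 6.49% and 12.3% of the windows of 27438 nuclear protein-coding genes. Among the genes called lower, 6 of 29 held a G-box and 9 of 29 an I-box. Among those tested and not called, the counts were 3 and 2 of 14. The evening element was in 3.85% and the CCA1 site in 9.62% of the 52 windows, against 2.36% and 6.69%.

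RCA (AT2G39730), the ATP-dependent chaperone that frees blocked Rubisco sites, had 78.2, 87 and 71.5 CPM in the wild type against 56.1, 63.5 and 56.2 CPM in the mutant. All mutant libraries lay below the wild type (log2 fold change -0.43 with a standard error of 0.0762, edgeR adjusted p = 0.00148).

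Both electron carrier genes that could be tested were lower. DRT112 (AT1G20340), the major plastocyanin gene, had 27, 29.1 and 21.4 CPM in the wild type against 13.7, 18.5 and 13.7 CPM in the mutant (log2 fold change -0.76 with a standard error of 0.134, edgeR adjusted p = 0.0015). PETC (AT4G03280), the Rieske iron-sulfur protein of the cytochrome b6f complex, had 43.1, 45.4 and 39.3 CPM in the wild type against 30.8, 37.6 and 33 CPM in the mutant. The separation of its libraries was narrower (log2 fold change -0.33 with a standard error of 0.0775, edgeR adjusted p = 0.00662). PETE1, the other plastocyanin gene, had 2 to 6 counts in every library. Of the ATP synthase genes, ATPC1 (AT4G04640, the gamma subunit) had 115, 122 and 109 CPM in the wild type against 78.9, 88.7 and 82.1 CPM in the mutant, clearly separated (log2 fold change -0.47 with a standard error of 0.0602, edgeR adjusted p = 0.000187). ATPD (AT4G09650, the delta subunit) had 50.4, 52.1 and 46.8 CPM in the wild type against 46.3, 49 and 43.6 CPM in the mutant, and was not called (log2 fold change -0.10 with a standard error of 0.0583, edgeR adjusted p = 0.187). It passed the threshold when scaled by library totals alone (edgeR adjusted p = 0.0435) or by upper quartiles (0.0364).

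Other nuclear genes of photosynthesis, listed by function, gave a mixed picture. Of 16 Calvin cycle genes, 6 were called lower and 1 higher, with a median log2 fold change of -0.12. These 7 of 16 are near the 41.7% called in either direction over all genes tested. By direction, 37.5% were called lower against 19.7% of all genes tested, and 1 of 16 was called higher against 21.9%. Those with the smallest p were FBP (plastid fructose bisphosphatase), PRK (phosphoribulokinase) and SBPASE (sedoheptulose bisphosphatase). FBP fell to 56.7% of the wild type (log2 fold change -0.82, edgeR adjusted p = 2.58e-05), PRK to 46% (-1.12, edgeR adjusted p = 0.000133) and SBPASE to 67.1% (-0.58, edgeR adjusted p = 0.000155). The 1 gene called higher, named after its values were seen, was RPE (ribulose-phosphate epimerase, log2 fold change 0.14, edgeR adjusted p = 0.0237). Of 9 further thylakoid subunits and carriers, 4 were called lower and 0 higher (median log2 fold change -0.29), or 44.4% against 19.7% of all genes called lower and 41.7% called in either direction. They included LFNR2, a ferredoxin-NADP reductase (log2 fold change -0.62, edgeR adjusted p = 0.00233), PETM of the cytochrome b6f complex (-0.41, edgeR adjusted p = 0.00434) and PSBTN of photosystem II (-0.75, edgeR adjusted p = 0.00971).

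Of 12 regulators and plastid sigma factors, 6 were called lower and 0 higher (median log2 fold change -0.15). That is 50%, where 19.7% of all genes tested were called lower and 41.7% in either direction. GLK1, a transcription factor that activates photosystem and antenna genes in Arabidopsis, had 6.79, 7.38 and 6.74 CPM in the wild type against 3.09, 3.34 and 3.12 CPM in the mutant. The libraries of each genotype were tightly grouped and widely separated (log2 fold change -1.13 with a standard error of 0.0785, edgeR adjusted p = 2.51e-06). Its close relative GLK2, with 50, 47.2 and 43.5 CPM in the wild type against 45.7, 47.2 and 43.8 CPM in the mutant, was not called (log2 fold change -0.04 with a standard error of 0.058, edgeR adjusted p = 0.608). SIG1 (log2 fold change -0.44, edgeR adjusted p = 0.000227) and SIG4 (-0.44, edgeR adjusted p = 0.00164), sigma factors of the plastid RNA polymerase, were called lower.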

How the data were processed

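The authors deposited raw read counts per gene in one table, with a count column for each library, per the file headers. The genome build was TAIR10, per the submitters' processing notes. The aligner, counting tool, read length, use of strand and treatment of reads matching several genes are not given in the sources used here. Column names gave a genotype and a letter while the labels number the samples, so columns were assigned to genotypes only. For the same reason the 6 further columns of length-normalised values were not used, and levels per length were computed from counts and RefSeq transcript lengths instead, a change from the planned scale. Levels and shares per length depend on the annotated transcript length, and ratios between genotypes of a single gene do not.

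The genes and lists were chosen with earlier results of these data known. Of 33602 genes, 1213 had no value. The filter filterByExpr of edgeR 4.0.16 (R 4.3.3, minimum count 10) kept 18736 genes. Counts were tested with edgeR's quasi-likelihood F test, TMM scaling and genotype as the only term, with Benjamini-Hochberg adjustment over all genes tested and a threshold of 0.05. The SE is the absolute coefficient over the square root of F. The script was tested on simulated data. Alternatives were DESeq2 1.42.0, limma-voom (limma 3.58.1), other scalings and filters, each library left out, and a block by column letter. Total counts per library were 70687361 to 85605647, so 1 count is 0.0115 to 0.014 CPM. By rule, values in every library are given, per complex, for the gene with the highest level per length and up to 4 called genes with the smallest p, and of other lists up to 3 called genes are named. Further genes were named after their values were seen, among them PSAH1, LHCB4.3, ATPD and GLK2. Coordinates, transcripts and upstream windows are from RefSeq's annotation of TAIR10.1, and all 52 genes matched by locus.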

Additional observations from a re-analysis of the deposited data

How the results depend on the processing

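Of the photosynthesis genes, 29 were called lower, and 23 to 36 when single libraries were left out. The number was 32 with scaling by library totals alone and with upper quartiles, 30 without an expression filter, and 29 with DESeq2 size factors, with the minimum mean of 10 as filter, with DESeq2 and with limma-voom. In all these fits 0 were called higher. A fold change of at least 1.5 left 19 of the 29 and 2291 of the 7806 genes called in all. An adjusted p under 0.01 left 21 of the 29 and 5008 in all. The median log2 fold change of the 43 genes ran from -0.59 to -0.44 with each library left out. The sum of each complex as a percentage of the wild type moved by less than its SD with CPM in place of CPM per kb. Scaling moved the split over all genes from 4106 higher and 3700 lower to 3119 and 4589 by totals alone and to 2961 and 5258 by upper quartiles.

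With the column letter as a replicate block, 32 of the photosynthesis genes were called lower and 8940 genes were called in all. Under the block PSBX (edgeR adjusted p = 0.00265), PSAN (0.0221) and PSAD2 (0.028) were called lower in addition. Deviations of same-letter libraries correlated at -0.228 for a, 0.43 for b and 0.46 for c. Between different letters the values ran from -0.689 (wild-type c with mutant b) to 0.489 (wild-type c with mutant a). Same-letter libraries thus did not stand out, and the letters were not taken to pair the samples.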

Other observations

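The chloroplast's own genes encode the reaction centre proteins and the large Rubisco subunit that assemble with the nuclear-encoded subunits. The 11 listed here were scarce in these poly(A) libraries, with summed levels of 4.8 to 10.8 CPM in wild-type libraries and 4.28 to 5.68 CPM in the mutant. Their values describe only the plastid RNA captured in poly(A) libraries, and the total level of plastid transcripts was not measured. Of 10 that could be tested, 5 were called lower in scl30a-1 and 0 higher (median log2 fold change -0.80), where 19.7% of all genes tested were called lower and 41.7% in either direction. The mutant libraries all lay below the wild type for 3 of the 10, against 25.2% of all genes tested, and psbA had a log2 fold change of 0.34 (edgeR adjusted p = 0.323). rbcL, the large Rubisco subunit, had 0.28, 0.705 and 0.759 CPM in the wild type against 0.129, 0.208 and 0.232 CPM in the mutant in libraries a, b and c (log2 fold change -1.64 with a standard error of 0.39, edgeR adjusted p = 0.00714). psaA, a photosystem I reaction centre protein, had 0.937, 1.51 and 1.68 CPM in the wild type against 0.643, 0.767 and 0.735 CPM in the mutant (log2 fold change -0.96 with a standard error of 0.214, edgeR adjusted p = 0.00531). atpA, an ATP synthase subunit, had 0.644, 1.12 and 1.51 CPM in the wild type against 0.526, 0.468 and 0.554 CPM in the mutant (log2 fold change -1.10 with a standard error of 0.28, edgeR adjusted p = 0.0106). In all 3 genes wild-type library a was the lowest of its genotype and lay closest to the mutant libraries. Over the nuclear photosynthesis genes the lowest wild-type library was c instead, in 39 of 43.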
